A study of Mus musculus with 8 samples.

Results

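The proteoglycan aggregate of cartilage and the matrilins were followed through fracture healing as a group of 9 genes: Acan, Hapln1, Matn1, Matn2, Matn3, Matn4, Comp, Vcan and Lect1. The genes were taken by symbol, and 9 of 9 were present among the 28956 genes of the count tables. Single-cell RNA-seq libraries came from femoral stromal cells of wild-type C57BL/6 female mice of 12 weeks. In the Fracture group the bone had been broken by three-point bending of the left leg at 10 weeks of age, held with an intramedullary nail and collected at day 14. The Control group was age-matched and unfractured, with no sham operation named. Blood cells were depleted with antibody-coated beads in both groups. From the sample titles, each group was read as 2 cell preparations of 2 libraries each. The titles do not say whether the 2 libraries of a preparation came from the same cell suspension. The number of mice in a preparation and the part of the femur that gave the chondrocytes are not given in the sources used here, so n was 2 preparations per group and p-values measure only the spread between preparations.

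Aggrecan, the product of Acan, is the large chondroitin sulfate proteoglycan that gives cartilage its resistance to compression. It binds to hyaluronan, and link protein, the product of Hapln1, locks that bond to form the aggregate. Versican (Vcan) belongs to the same lectican family and is known from loose connective tissue and vessel walls. The matrilins are adaptor proteins of the extracellular matrix: matrilin-1 (Matn1) and matrilin-3 (Matn3) are known from cartilage, whereas matrilin-2 (Matn2) and matrilin-4 (Matn4) are more widely distributed. Cartilage oligomeric matrix protein (Comp), a thrombospondin family member, binds collagens and matrilins. Lect1, named Cnmd in newer annotation, encodes chondromodulin, a secreted protein of avascular cartilage that inhibits vessel growth. In a healing long bone a cartilage callus forms first and is later replaced by bone, its cells passing through prehypertrophic and hypertrophic stages.

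In the GRCm38 annotation, Acan lies on chromosome 7 from 79053483 to 79115099 and Comp on chromosome 8 from 70373558 to 70382066. Matn1 lies on chromosome 4 from 130944385 to 130955475, Matn2 on chromosome 15 from 34306677 to 34436273, Matn3 on chromosome 12 from 8947929 to 8972028 and Matn4 on chromosome 2 from 164389393 to 164405160. Lect1 lies on chromosome 14 from 79637690 to 79662170. Hapln1 and Vcan are neighbours on chromosome 13, from 89539796 to 89611652 and from 89655312 to 89742509, with 43659 bases between them. Matn4 overlaps Rbpjl and Matn2 overlaps 9430069I07Rik, both annotated as protein-coding genes of the opposite strand. Hapln1 overlaps the pseudogene Gm8546, and Vcan overlaps the pseudogene Gm16318 and the antisense gene Gm4117, again on the opposite strand. Whether the counting used strand is not given in the sources used here, so the values of these 4 genes are uncertain to that extent.

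The promoters of Matn4 and Matn1 are shown because these were the members with called changes in the most chondrocyte subtypes, Matn4 upwards in 6 of 6 and Matn1 upwards in 2 and downwards in 2. The sequences are from RefSeq (GRCm38.p6), 250 bases upstream of each start, given 5′ to 3′ on the gene's strand, chr2:164405161-164405410 for Matn4 (minus strand) and chr4:130944135-130944384 for Matn1 (plus strand). Capitals mark the RUNX core TGTGGT.
Matn4: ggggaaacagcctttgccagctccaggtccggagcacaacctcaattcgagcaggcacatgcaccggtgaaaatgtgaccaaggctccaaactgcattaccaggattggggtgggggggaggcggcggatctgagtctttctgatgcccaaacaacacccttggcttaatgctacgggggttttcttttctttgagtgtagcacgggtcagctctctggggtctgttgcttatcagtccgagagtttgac
Matn1: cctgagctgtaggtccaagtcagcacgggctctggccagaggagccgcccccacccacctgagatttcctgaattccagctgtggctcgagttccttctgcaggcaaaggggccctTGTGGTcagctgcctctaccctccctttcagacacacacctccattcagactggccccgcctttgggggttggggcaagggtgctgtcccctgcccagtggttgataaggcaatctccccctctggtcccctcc
The RUNX core, searched on both strands, was present in 2 of 8 windows of 7 members, those of Matn1 and Hapln1, and in 14.0% of 32851 promoters. The SOX core AACAAT was in 0 of 8 windows and in 9.42% of all promoters, and TATAAA was in 0 of 8 and in 12.4%. Windows were matched for 7 of 9 members, and Matn2 and Comp are named only. These matches are a description of letters and not of binding.

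Depth ranged from 56543151 to 89126291 UMIs (unique molecular identifiers, counts of captured transcript 3′ ends) over the 8 libraries. After filters, 45328 cells were kept, 20676 from Control with a median of 7711 UMIs and 24652 from Fracture with a median of 11351. The barcodes had been selected differently before deposit: the smallest kept cell had 529 UMIs in Control and 1929 in Fracture. Pairs of libraries shared between 10 and 23 barcodes. Clustering was done without the 9 members, and the chondrocyte-like class was checked on its markers, of which 9 of 9 (among them Col2a1, Col9a1 and Sox9) were raised in its largest cluster and 3 of 9 in a second cluster led by Col10a1. Control contributed 2054 and 678 such cells by preparation, and Fracture 6729 and 7034. In the 6 other classes examined, cells of the Fracture samples carried Col2a1 at a median of between 758 and 1097 CPM (a gene's UMIs scaled to a common library total), erythroid-like cells included. Levels in erythroid-like cells, which should lack these genes, are set beside the results outside cartilage and beside those of Matn4 and Vcan.

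In chondrocyte-like cells, Matn4, Acan and Vcan were higher after fracture and the other 6 members did not pass the test. Counts were summed per preparation and tested with edgeR's quasi-likelihood method, with Benjamini-Hochberg adjustment over all 17243 genes tested and a threshold of 0.05. By this test 3 of 9 members were higher and 0 lower, against a background of 19.3% of all genes higher and 18.1% lower. DESeq2 called 5 of 9 higher, adding Comp and Hapln1, and 0 lower, where 3290 of 17863 genes were higher and 2509 lower. At an unadjusted edgeR p under 0.05, 0 of 9 were lower. With either Fracture preparation left out, 0 of 9 members and 0 genes in all passed in edgeR, although 4576 and 4638 genes were under an unadjusted p of 0.05. The values given below are CPM after TMM scaling (trimmed mean of M-values), a scaling between samples. Members are not ranked against each other. The class mixes subtypes whose shares differed between the groups, as given below. The part of these shares in the changes of the class was not tested. The study saw chondrocytes gather in the callus at day 14, and the Control bones were unfractured. A change within like cells and a difference between callus and other cartilage therefore cannot be told apart. Words such as rise and fall compare the groups only.

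Matn4 had 77.4 and 60.4 CPM in Control against 467 and 435 CPM in Fracture. The groups lay far apart, and the rise was 2.71 ± 0.14 on the log2 scale (SE, n = 2 preparations per group; edgeR, Benjamini-Hochberg adjusted p = 0.00165). Erythroid-like cells of the Fracture samples held Matn4 at 108 and 86.3 CPM with all barcodes, and at 6.99 and 7.40 CPM without TMM scaling once barcodes high in Col2a1 were set aside. The part of free RNA in the rise was not tested. Acan stood at 4232 and 3944 CPM in Control and at 6408 and 6415 CPM in Fracture. The groups did not overlap and the rise was 0.65 ± 0.11 (log2, SE; edgeR, Benjamini-Hochberg adjusted p = 0.0161).

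Vcan was scarce in these cells, at 3.29 and 3.04 CPM in Control and 7.90 and 8.12 CPM in Fracture. The rise of 1.33 ± 0.09 (log2; edgeR, Benjamini-Hochberg adjusted p = 0.0027) rested on 104 and 39 UMIs in Control and 662 and 764 in Fracture. Erythroid-like cells of the Fracture preparations held Vcan at 13.6 and 4.83 CPM with all barcodes, and at 10.2 and 2.59 CPM without TMM scaling once barcodes high in Col2a1 were set aside. Both ranges take in the level of the chondrocytes, and the part of free RNA in this rise was not tested.

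The remaining members differed less. Comp stood at 9670 and 8943 CPM in Control and at 13868 and 13101 CPM in Fracture, a difference of 0.53 ± 0.16 (log2) that did not pass the threshold (edgeR, Benjamini-Hochberg adjusted p = 0.0611). Hapln1, the link protein, stood at 5456 and 4955 against 6448 and 6231 CPM, with a log2 difference of 0.28 ± 0.12. Comp and Hapln1 were above both Control values in both Fracture preparations without passing the test.

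Matn3 stood at 2970 and 2548 CPM in Control against 3292 and 3120 in Fracture. Lect1 stood at 3693 and 3384 CPM against 3246 and 3229, the reverse order. Matn2 was at 39.0 and 36.1 against 38.2 and 38.1 CPM, with a log2 difference of 0.02 ± 0.07, and Matn1 was at 148 and 172 against 155 and 142 CPM. For Matn1 and Matn2 the groups overlapped on this scale, although Matn1 did not behave alike in all subtypes. In plain CPM the 4 Fracture libraries of Matn2, from 35.4 to 36.8 CPM, lay below the 4 Control libraries, from 36.9 to 43.7 CPM, so its order depended on the scaling. Where a preparation's libraries were compared, the larger value was at most 1.38 times the smaller for each member but Vcan, for which it was up to 3.95 times.

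**Figure D1:**
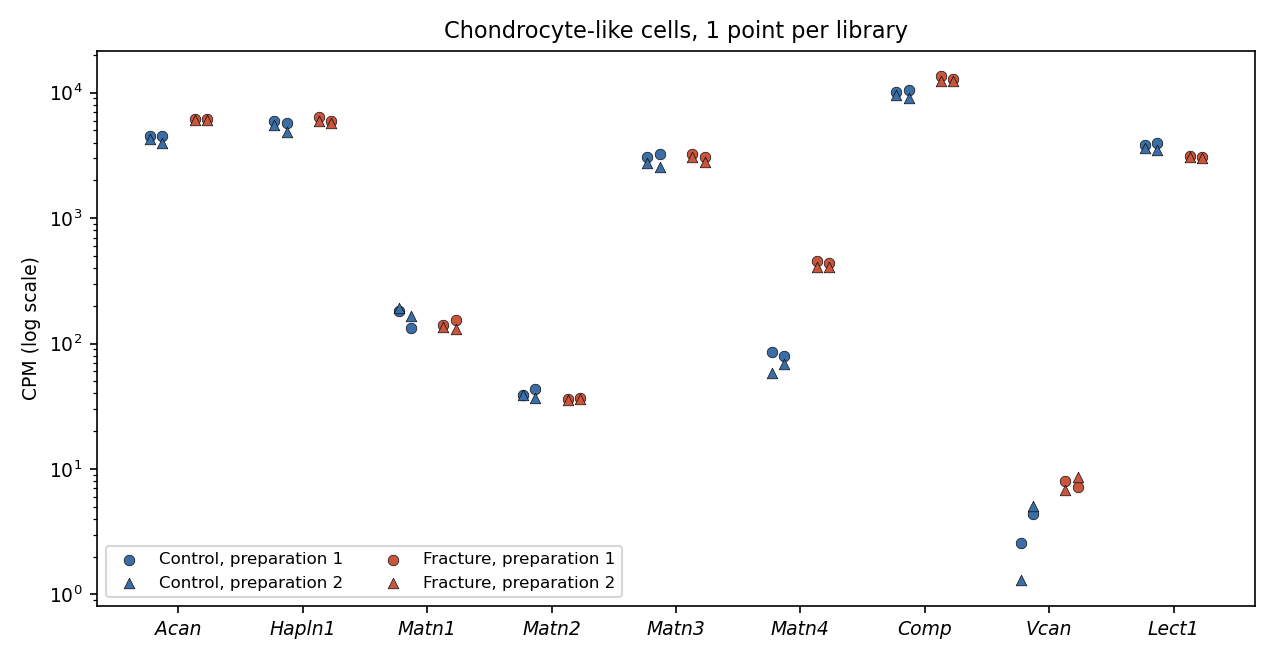
Plain CPM, without TMM scaling, of each member in chondrocyte-like cells on a log axis, with a point for each of the 8 libraries, coloured by group and shaped by preparation. The 4 Fracture libraries lie above the 4 Control libraries for Matn4, Acan, Comp and Vcan and below them for Lect1 and, narrowly, Matn2, whereas the libraries of Matn1, Matn3 and Hapln1 intermix.

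Summed over all stromal cells, 9 of 9 members were higher in Fracture, against 18.6% of 19804 genes tested. In such sums more cells of a type and more RNA per cell cannot be told apart. Matn4 rose most, from 28.3 and 15.9 to 344 and 315 CPM, a log2 difference of 3.90 ± 0.33 (edgeR, Benjamini-Hochberg adjusted p = 0.00552). Matn1, with no change in chondrocyte-like cells that passed the test, went from 48.3 and 36.1 to 104 and 94.0 CPM, a rise of 1.23 ± 0.16. Lect1 had the smallest rise, 1.17 ± 0.29, from 1220 and 719 to 2206 and 2149 CPM (edgeR, Benjamini-Hochberg adjusted p = 0.0399). The other members rose by between 1.28 (Vcan) and 1.95 (Acan) on the log2 scale. With either Fracture preparation left out, 0 of 9 members and 0 genes in all passed in edgeR, although 5357 and 5738 genes were under an unadjusted p of 0.05.

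Chondrocyte-like cells were divided into 6 tested subtypes. A prehypertrophic-like subtype (168, 60, 965 and 976 cells in the 2 Control and then the 2 Fracture preparations), a hypertrophic-like subtype (206, 99, 1620 and 1643 cells), a Serpina1-positive subtype (811, 273, 791 and 841) and a cycling subtype (235, 76, 458 and 497) were named from markers. The hypertrophic-like subtype had 4 of 6 markers raised, but Dmp1 and Mepe, known from osteocytes, and Tnfsf11 and Car3 were among its leading genes. At a finer resolution of 0.4, a cluster of 733 cells wholly within it was led by Car3, Mepe and Ifitm5, the last known from osteoblasts, and took 61 and 37 of its Control cells and 314 and 321 of its Fracture cells. The part of these cells in the lower calls of the subtype was not tested. The prehypertrophic-like subtype had 3 of 5 of its own markers and 3 of 6 hypertrophic ones. A Lcn2-high subtype (256, 71, 1955 and 2040 cells; led by Lcn2, Chrdl2 and Kcna5) and a Myoc-high subtype (337, 93, 870 and 946 cells; led by Myoc, Prg4 and Dapl1) stayed unnamed. The Myoc-high subtype had 4 of 4 resting and 5 of 6 superficial or articular markers raised and was left without a name because it carried both lists. Of chondrocyte-like cells, Serpina1-positive cells made up 39.7% in Control and 11.9% in Fracture, cycling cells 11.4% and 6.94%, and Myoc-high cells 15.7% and 13.2%. Lcn2-high cells made up 12.0% and 29.0%, hypertrophic-like cells 11.2% and 23.7%, and prehypertrophic-like cells 8.35% and 14.1%.

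These subtypes rest on the integration of the 2 groups. For the alternatives, each cluster found without integration or at a resolution of 0.4 was matched to the subtype that gave the largest share of its cells, whatever its own markers. Clustered without integration, 84.3% of Control chondrocyte-like cells fell into the cluster matched to the Serpina1-positive subtype and 3.20% into those matched to the hypertrophic-like one, against 12.6% and 34.4% of Fracture cells, so which Control cells stand opposite the Fracture cells of a subtype depends on that step. The match to hypertrophic-like cells joined a cluster with its markers (31 and 14 Control cells, 2228 and 2190 Fracture cells) and an unnamed cluster led by Car3, Ifitm5 and Mepe (29 and 9 Control cells, 171 and 186 Fracture cells), so the latter made up far more of the Control than of the Fracture cells. The cluster with hypertrophic markers held 2944 cells of the integrated hypertrophic-like subtype, 1327 of the prehypertrophic-like and 176 of the Lcn2-high one. Alone it fell under the minimum of 20 cells in 1 preparation and was not fitted. The part of these mixtures in the values without integration was not tested. The Lcn2-high subtype had 1 and 0 Control cells without integration, against 2014 and 2152 Fracture cells. The Myoc-high subtype had 48 and 12 Control cells there, and no cluster was matched to the prehypertrophic-like subtype. The calls in these subtypes could therefore not be fitted without integration. Called values that turn without integration are given beside the results for the subtypes that could be fitted. Over the 6 subtypes and 9 members, 16 of 54 tests found a member higher in Fracture and 5 found one lower. With either Fracture preparation left out, fewer of these tests passed, and fewer genes in all passed in each subtype. The background of higher and of lower genes was 12.4% and 9.74% in Lcn2-high, 5.02% and 5.8% in hypertrophic-like, 5.42% and 2.98% in Serpina1-positive, 9.18% and 8.54% in Myoc-high, 12.4% and 11.4% in prehypertrophic-like, and 6.3% and 3.58% in cycling cells.

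Matn4 was higher in 6 of 6 subtypes. In Myoc-high cells it went from 185 and 168 CPM to 1319 and 1266 CPM, in Lcn2-high cells from 105 and 70.3 to 570 and 509, and in prehypertrophic-like cells from 66.0 and 49.1 to 403 and 342. The Myoc-high subtype had the highest Matn4 level in both groups and did not overlap with the next, Lcn2-high. The log2 rise was 2.87 ± 0.10 in Myoc-high, 2.61 ± 0.20 in Lcn2-high and 2.68 ± 0.18 in prehypertrophic-like cells (edgeR, Benjamini-Hochberg adjusted p of 0.000463, 0.00183 and 0.000595).

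The rise in Matn4 was 2.24 ± 0.10 in cycling cells (56.5 and 59.8 to 263 and 285 CPM), 1.93 ± 0.35 in hypertrophic-like cells (50.7 and 21.8 to 143 and 141 CPM) and 1.33 ± 0.08 in Serpina1-positive cells (55.8 and 50.6 to 131 and 137 CPM). In each of these the Fracture preparations lay above both Control preparations. The Fracture levels of the hypertrophic-like and Serpina1-positive cells were close to the 108 and 86.3 CPM of erythroid-like cells with all barcodes. Without Col2a1-high barcodes, erythroid-like cells of Fracture held 6.99 and 7.40 CPM, without TMM scaling. The part of free RNA in the levels of these subtypes was not tested. In the Control group the 4 lowest subtypes for Matn4 overlapped their neighbours, whereas in the Fracture group no neighbours overlapped. Without integration, Matn4 was still higher in the 3 subtypes that could be fitted, by 2.99 in the joined hypertrophic-like clusters, 2.18 in cycling and 0.92 in Serpina1-positive cells (log2).

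Matn1 moved in opposite directions. It was lower in prehypertrophic-like cells, from 525 and 483 to 230 and 184 CPM (log2 difference −1.29 ± 0.13; edgeR, Benjamini-Hochberg adjusted p = 0.00242), and in hypertrophic-like cells, from 471 and 440 to 156 and 150 CPM (−1.58 ± 0.11; adjusted p = 0.00282). It was higher in cycling cells, from 33.7 and 35.7 to 109 and 121 CPM (1.73 ± 0.11; adjusted p = 0.00337), and in Serpina1-positive cells, from 44.2 and 76.9 to 202 and 208 CPM (1.76 ± 0.26; adjusted p = 0.0306). The groups did not overlap in any of these 4 subtypes.

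In Lcn2-high cells Matn1 was at 162 and 144 against 126 and 112 CPM, and in Myoc-high cells at 12.4 and 34.6 against 54.2 and 70.6 CPM, neither of which passed the test. The Control order of levels, with prehypertrophic-like and hypertrophic-like cells at the top and cycling and Myoc-high cells at the bottom, spanned from 504 to 23.5 CPM in the means. In Fracture the span was from 207 to 62.4 CPM, and Serpina1-positive cells stood second, overlapping with the prehypertrophic-like cells above them.

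The direction of Matn1 in hypertrophic-like cells turned without integration, to a log2 difference of 2.697 (edgeR, Benjamini-Hochberg adjusted p = 0.00303) with the 60 and 23 Control cells of the joined clusters, and the rise in Serpina1-positive cells shrank to 0.11. The rise in cycling cells stayed, at 2.24. To compare cells with no subclustering, a split of the chondrocyte-like cells at 1000 CPM of Col10a1, the collagen of hypertrophic cartilage, was added after the data were seen. Among Col10a1-high cells (346, 133, 3244 and 3347), Matn1 went from 516 and 547 to 191 and 170 CPM, a log2 difference of −1.56 ± 0.09 (edgeR, Benjamini-Hochberg adjusted p = 0.00141), where 10% of genes were lower and 10% higher. Among the remaining Col10a1-low cells (1708, 545, 3485 and 3687) it went from 55.1 and 62.8 to 104 and 102 CPM, a rise of 0.81 ± 0.08 (adjusted p = 0.00633), where 16.4% of genes were higher.

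The Matn1 effect thus differed between the cells on either side of the split, by −2.31 ± 0.08 on the log2 scale, high minus low (edgeR, Benjamini-Hochberg adjusted p = 1.65e-09, against 10.7% of genes called in either direction). Cells near the cut, between 500 and 2000 CPM of Col10a1, numbered 59, 15, 953 and 951, and erythroid-like cells of Fracture had a median of 402 and 340 CPM of Col10a1 against 0 in both Control preparations. The part of free Col10a1 RNA in placing Fracture cells above the cut was not tested.

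**Figure D2:**
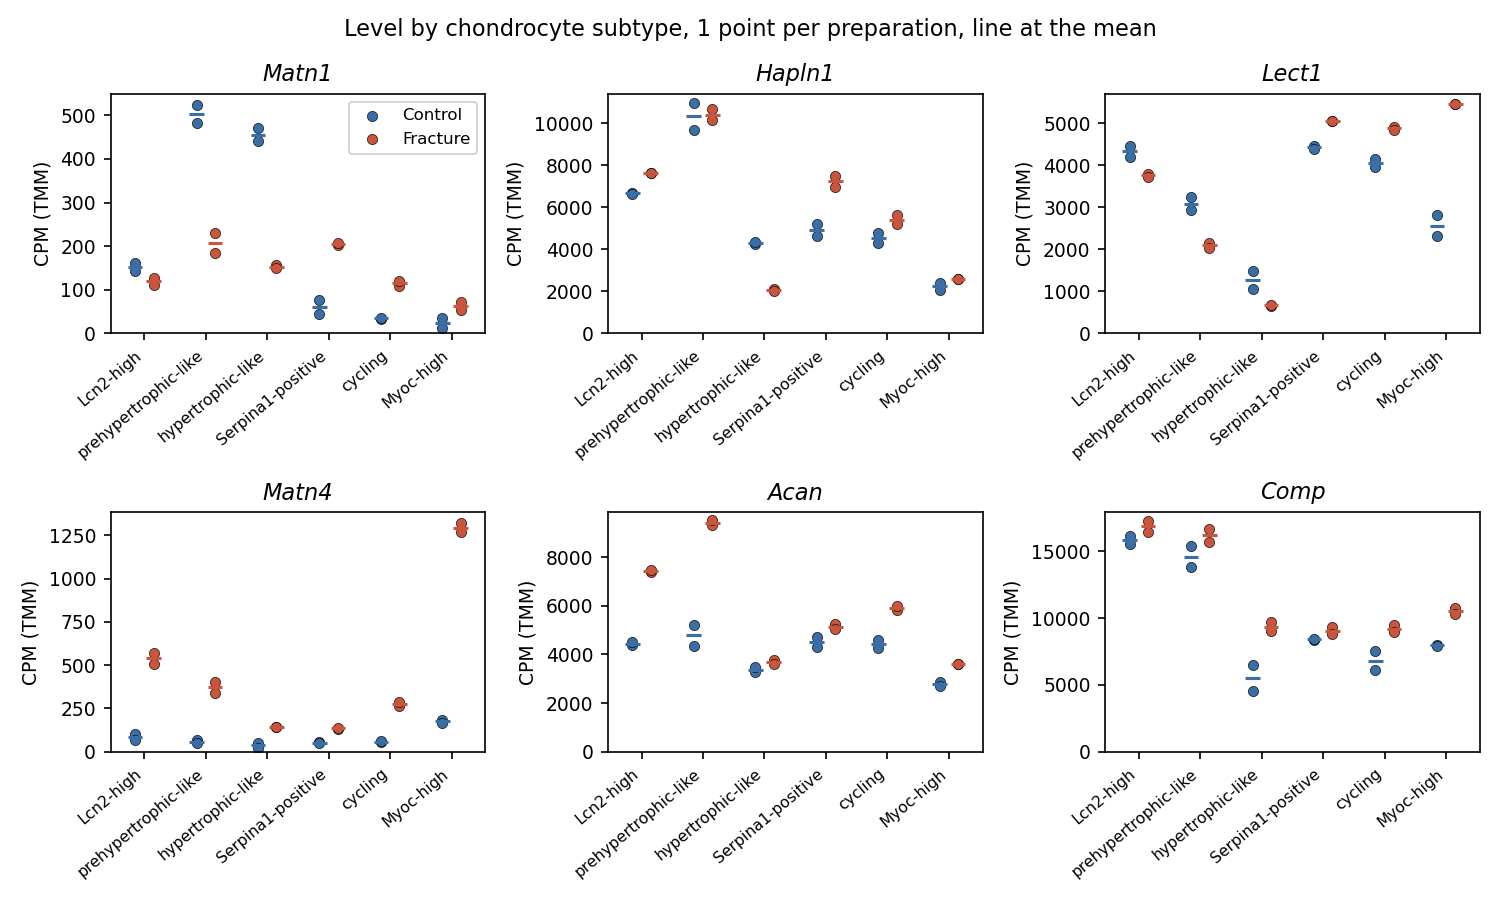
TMM-scaled CPM of Matn1, Hapln1, Lect1, Matn4, Acan and Comp in 6 chondrocyte subtypes on linear axes from 0, with a point for each preparation, a line at the mean of each group, and colour by group. Matn4 Fracture points stand above Control points in each of the 6 subtypes, and Matn1 points cross from lower in prehypertrophic-like and hypertrophic-like cells to higher in Serpina1-positive and cycling cells.

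Hapln1 and Lect1 were lower in hypertrophic-like cells. Hapln1 went from 4255 and 4330 to 2105 and 2006 CPM (−1.06 ± 0.10; edgeR, Benjamini-Hochberg adjusted p = 0.00546), and Lect1 from 1487 and 1059 to 645 and 681 CPM (−0.94 ± 0.18; adjusted p = 0.0314). Neither group overlapped the other. Without integration, in the joined clusters, both directions turned, to 1.97 for Hapln1 and 0.62 for Lect1, with neither passing the test. On the Col10a1 split, high cells had Hapln1 at 8627 and 7709 against 6347 and 6238 CPM (−0.38 ± 0.10; edgeR, Benjamini-Hochberg adjusted p = 0.0549) and Lect1 at 2696 and 2218 against 1766 and 1774 CPM (−0.47 ± 0.11; adjusted p = 0.0451). The high side held more cells than the hypertrophic-like subtype in each preparation. The part of other subtypes in it was not tested.

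Lect1 was also lower in prehypertrophic-like cells, from 3238 and 2924 to 2145 and 2037 CPM (−0.56 ± 0.08; edgeR, Benjamini-Hochberg adjusted p = 0.00692). In Myoc-high cells it was higher, from 2805 and 2314 to 5468 and 5453 CPM (1.09 ± 0.13; adjusted p = 0.00485). In both subtypes the preparations of the 2 groups were well separated. Hapln1 did not pass the test in the 5 subtypes other than hypertrophic-like, and its highest level in both groups was in prehypertrophic-like cells, at means of 10323 CPM in Control and 10411 in Fracture.

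Acan was higher in 3 of 6 subtypes, none of which could be fitted without integration. It went from 5212 and 4353 to 9315 and 9512 CPM in prehypertrophic-like cells (0.98 ± 0.10; edgeR, Benjamini-Hochberg adjusted p = 0.00212) and from 4371 and 4494 to 7383 and 7449 CPM in Lcn2-high cells (0.74 ± 0.06; adjusted p = 0.00197). The rise in Myoc-high cells was 0.37 ± 0.10, from 2872 and 2706 to 3619 and 3597 CPM, and passed narrowly (edgeR, Benjamini-Hochberg adjusted p = 0.0499). In Control the 4 subtypes with the most Acan could not be told apart from their neighbours by the preparations, and in Fracture only hypertrophic-like and Myoc-high cells overlapped. On the Col10a1 split the Acan rise was of like size in high cells, 0.51 ± 0.08, and in low cells, 0.57 ± 0.12, and the difference, high minus low, was 0.002 ± 0.079 (log2) and did not pass.

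Matn3 was higher in Lcn2-high cells, from 3368 and 3388 to 4416 and 4157 CPM (0.34 ± 0.06), and in Myoc-high cells, from 1969 and 1679 to 2596 and 2491 CPM (0.48 ± 0.11). Its level was lowest in hypertrophic-like cells, at 1252 and 865 CPM in Control and 845 and 829 CPM in Fracture, where the log2 difference, −0.34 and not called, was 1.76 in the joined clusters without integration. Vcan was higher in Lcn2-high cells (1.75 ± 0.29) and in Serpina1-positive cells (2.23 ± 0.44), with no more than 11.5 CPM in any chondrocyte subtype. These calls rested on 13 and 2 Control UMIs in Lcn2-high and on 6 and 5 in Serpina1-positive cells, and the Fracture levels, 7.95 and 7.92 and then 3.89 and 2.76 CPM, were no higher than the upper of the erythroid-like values. The part of free RNA in them was not tested. Comp and Matn2 passed the test in 0 of 6 subtypes in edgeR. At an unadjusted p under 0.05 Comp differed in 3 of them and Matn2 in 1, and DESeq2 called Comp in 3 and Matn2 in 0. The Comp difference in Serpina1-positive cells, 0.11 on the log2 scale and not called, was −0.27 without integration. Comp was at its highest in Lcn2-high cells, at means of 15825 CPM in Control and 16873 in Fracture, and Matn2 in Myoc-high cells, at means of 91.1 and 84.0 CPM. For Comp the Fracture preparations of Lcn2-high cells overlapped those of prehypertrophic-like cells.

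**Figure D3:**
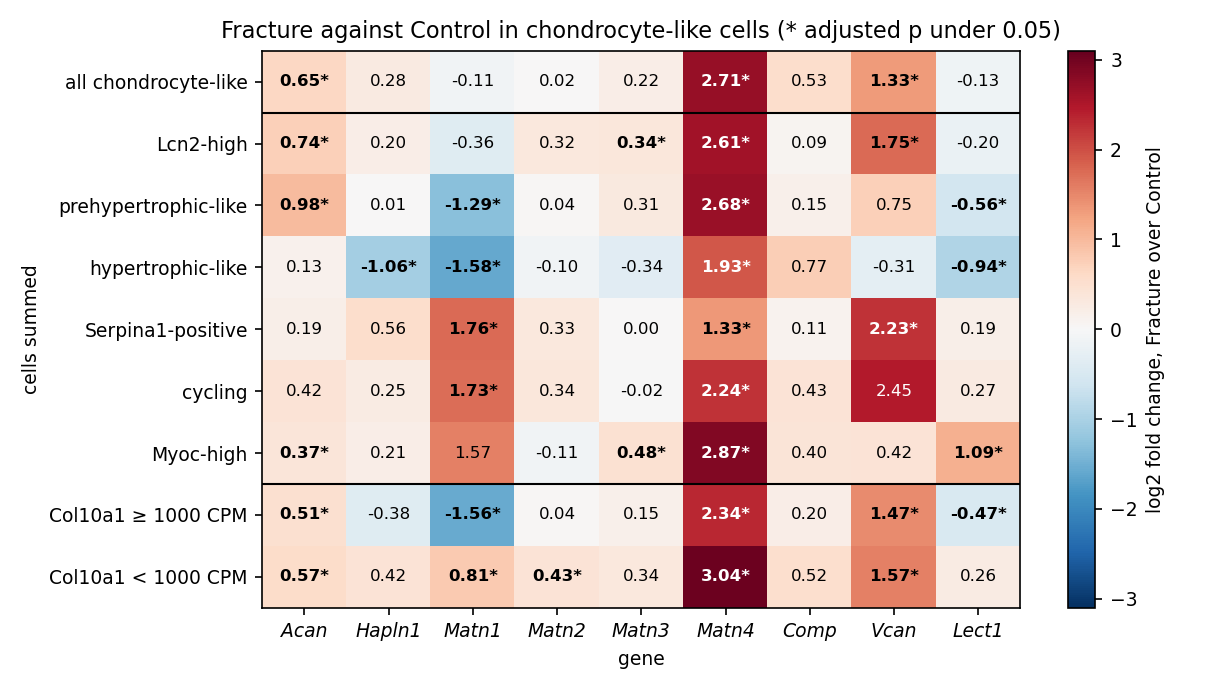
Heat map of the log2 fold change, Fracture over Control, of the 9 members (columns) in all chondrocyte-like cells, the 6 subtypes and the cells on either side of the Col10a1 split (rows), with the value in each cell and a star where the Benjamini-Hochberg adjusted p of edgeR was under 0.05. Matn4 is starred and above 0 in 6 of 6 subtypes, whereas Matn1 has stars on both sides of 0.

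Differences of the fracture effect between subtypes were tested directly, as the effect in each subtype minus that in Lcn2-high cells, with the preparation as a block since subtypes of a preparation share their source. The Control side of this reference rests on integration, without which it held 1 and 0 cells. Of 45 such differences, 26 passed, against 11.2% of genes for hypertrophic-like, 20.1% for Serpina1-positive, 14.1% for Myoc-high, 5.88% for prehypertrophic-like and 8.87% for cycling cells. With Fracture preparation 1 left out, fewer passed, and fewer genes in all passed for each subtype. Taken against Serpina1-positive cells, a reference added after the data were seen, 28 of 45 passed, and Matn1 differed by −3.40 ± 0.20 in hypertrophic-like and by −3.14 ± 0.13 in prehypertrophic-like cells. Of all genes against this reference, 2725 of 13551 passed for Lcn2-high, 1807 of 13868 for hypertrophic-like and 2110 of 13853 for Myoc-high cells. For prehypertrophic-like and cycling cells 3055 of 13593 and 727 of 13440 passed. Against Lcn2-high cells without the block 9 of 45 passed, among them Matn1 in hypertrophic-like, Serpina1-positive and cycling cells. Of all genes, 362 of 14234 then passed for hypertrophic-like, 1253 of 13551 for Serpina1-positive and 752 of 13114 for Myoc-high cells. For prehypertrophic-like and cycling cells 32 of 13396 and 266 of 12735 did. The Matn1 difference was 2.28 ± 0.15 in Serpina1-positive, 2.16 ± 0.14 in cycling and 2.12 ± 0.28 in Myoc-high cells, and it was −1.20 ± 0.09 in hypertrophic-like and −0.91 ± 0.08 in prehypertrophic-like cells. These 5 of 5 passed with the block. Lect1 had 5 of 5 as well, from −0.72 ± 0.16 in hypertrophic-like to 1.25 ± 0.07 in Myoc-high cells. For Matn4 the difference was −1.23 ± 0.11 in Serpina1-positive and −0.70 ± 0.18 in hypertrophic-like cells. For Matn2, 0 of 5 differences passed in edgeR, 1 of 5 did at an unadjusted p under 0.05, and 0 of 5 in DESeq2.

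The share of chondrocyte-like cells with a Matn4 UMI, each cell thinned to 1000 UMIs, was 6.95% and 4.58% in Control and 29.1% and 26.8% in Fracture. Erythroid-like cells, the background, had shares of 0.137% and 0.112% in Control and 6.67% and 4.36% in Fracture, and without Col2a1-high barcodes 0.503% and 0% in Fracture. The groups did not overlap in chondrocyte-like cells, with a difference of 22.2 percentage points (two-sided exact permutation test over preparations, p = 0.333, the smallest that 2 against 2 allows). Among the subtypes, Myoc-high cells had the highest share, from 13.1% and 8.60% to 56.5% and 52.5%. Lect1 went the other way, from 87.0% and 78.7% to 73.8% and 74.2% of chondrocyte-like cells.

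Outside cartilage, 36 of 45 tests of a member in a class found it higher and 0 lower by edgeR, 0 also at an unadjusted p under 0.05 and by DESeq2. With either Fracture preparation left out, fewer tests found a member higher, and fewer genes in all were higher in each class. The backgrounds of higher genes were 9.6% in osteoblast-like, 25.7% in BMSC-like (bone marrow stromal cell), 7.61% in fibroblast-like, 17.6% in endothelial-like and 14.6% in smooth muscle-like cells, and lower genes made up 26.3% in BMSC-like cells. Cartilage RNA differed between the groups in these classes. Barcodes with over 5000 CPM of Col2a1 made up 12.7% and 11.1% of endothelial-like cells in the Fracture preparations and 21.96% and 20.6% of erythroid-like cells, against 0.655% and 0.398%, and 0.668% and 0.168%, in Control. The share was also higher in Fracture in BMSC-like, fibroblast-like and smooth muscle-like cells, but in osteoblast-like cells it went the other way, from 24.9% and 17.95% in Control to 7.27% and 7.61% in Fracture. Without these barcodes, a removal chosen after the data were seen, 31 tests found a member higher. Matn1 was then not tested in fibroblast-like and smooth muscle-like cells. Of all genes, 8.4% were higher in osteoblast-like, 25.8% in BMSC-like, 7.43% in fibroblast-like, 14.9% in endothelial-like and 15.7% in smooth muscle-like cells. Acan, Hapln1, Matn3, Comp and Lect1 no longer passed in endothelial-like cells. In osteoblast-like cells Hapln1, Matn3 and Lect1 passed only after the removal. Their Fracture levels there, in plain CPM, lay below those of erythroid-like cells. Several of the other levels lay near those of erythroid-like cells.

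In that reduced set, plain CPM without TMM scaling are given. In Fracture, Lect1 was at between 41.5 and 59.7 CPM in these classes, with erythroid-like cells at 57.02 and 58.1 CPM. Matn3 was at 58.1 and 58.9 CPM in erythroid-like cells, and both preparations lay above this in BMSC-like cells (66.5 and 69.1 CPM) and smooth muscle-like cells (66.8 and 64.3 CPM). Hapln1 was likewise near the erythroid-like level except in fibroblast-like cells, at 290 and 267 CPM in Fracture and 448 and 319 in Control. Since the removal takes out every barcode high in a cartilage collagen, the values with these barcodes kept are given for fibroblast-like cells. There Hapln1 stood at 560 and 521 in Control against 661 and 653 CPM in Fracture, the reverse order and again without passing the test (log2 difference 0.28). Lect1 rose from 33.1 and 67.5 to 293 and 282 CPM (2.54 ± 0.35, log2; edgeR, Benjamini-Hochberg adjusted p = 0.0188), and Matn3 stood at 32.4 and 139.98 against 272 and 225 CPM without passing the test. Erythroid-like cells of Fracture, likewise with these barcodes, held Lect1 at 831 and 841 CPM and Matn3 at 875 and 728 CPM.

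Matn4, by contrast, stood at 8.68 and 5.17 CPM in BMSC-like cells of Control and at 267 and 249 CPM in Fracture, with erythroid-like cells at 6.99 and 7.40 CPM. In the fit without Col2a1-high barcodes the rise was 5.42 ± 0.28 (log2; edgeR, Benjamini-Hochberg adjusted p = 0.00124). In fibroblast-like cells Matn4 was at 26.6 and 52.2 against 42.3 and 42.7 CPM (TMM-scaled), and the groups overlapped. With the Col2a1-high barcodes kept it was at 24.6 and 48.6 against 59.9 and 80.04 CPM, which did not overlap and did not pass the test (log2 difference 0.99; edgeR, Benjamini-Hochberg adjusted p = 0.122). The share of BMSC-like cells with a Matn4 UMI at 1000 UMIs went from 1.14% and 0.405% to 10.0% and 10.9%.

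The BMSC-like class itself depended on integration. Without it, 573 and 630 Fracture cells were BMSC-like in place of 1056 and 1139, and 1096 and 1234 were fibroblast-like in place of 709 and 843. Matn4 then rose by 1.92 in BMSC-like cells (log2; edgeR, Benjamini-Hochberg adjusted p = 0.00747) and by 2.35 in fibroblast-like cells (adjusted p = 0.00742). Acan rose by 2.85 in BMSC-like cells (adjusted p = 0.0207), and Matn2, at 1.03, no longer passed there (adjusted p = 0.0605). These fits without integration kept the Col2a1-high barcodes.

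Vcan, the lectican of connective tissue, was highest outside cartilage. Without Col2a1-high barcodes it stood at 811 and 544 CPM in fibroblast-like cells of Control and at 834 and 809 CPM in Fracture (TMM-scaled), with no difference by the test. In BMSC-like cells it rose from 65.4 and 36.4 to 241 and 248 CPM (2.26 ± 0.29; edgeR, Benjamini-Hochberg adjusted p = 0.0048). In smooth muscle-like cells it rose from 4.62 and 1.598 to 122 and 111 CPM (4.99 ± 0.34; adjusted p = 0.0012). Erythroid-like cells of Fracture were at 11.04 and 2.93 CPM in the same setting, below both.

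Matn2 was also present in fibroblast-like cells, and it rose there from 93.7 and 119 to 363 and 355 CPM (1.76 ± 0.16; edgeR, Benjamini-Hochberg adjusted p = 0.00826). In BMSC-like cells it rose from 15.8 and 8.24 to 72.9 and 69.7 CPM (2.56 ± 0.33). Both rises held with the Col2a1-high barcodes kept, at 1.76 and 2.58 on the log2 scale. Chondrocyte-like cells, at 39.0 CPM or less in each preparation, were below all of these fibroblast-like values, but the Control values of Myoc-high chondrocytes, 85.4 and 96.8 CPM, overlapped those of Control fibroblast-like cells.

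Comp and Acan were present in fibroblast-like cells of both groups. Comp stood there at 7944 and 3875 CPM in Control and at 3055 and 3007 CPM in Fracture, a log2 difference of −0.96 ± 0.37 that did not pass the test. With the Col2a1-high barcodes kept, the difference was −0.47 ± 0.36, with the groups overlapping at 7907 and 3996 against 4500.3 and 4104 CPM. The Control preparations, with 399 and 131 cells of this class, lay far apart for Comp. Acan stood at 664 and 328 against 955 and 1020 CPM in fibroblast-like cells, again without passing. With the Col2a1-high barcodes kept, Acan was higher there, from 714 and 586 to 1569 and 1621 CPM (1.29 ± 0.16, log2; edgeR, Benjamini-Hochberg adjusted p = 0.0145). In BMSC-like cells Acan went from 22.2 and 5.96 to 320 and 313 CPM (4.48 ± 0.68; edgeR, Benjamini-Hochberg adjusted p = 0.00694), while erythroid-like cells of Fracture stood at 143 and 90.5 CPM. Matn1 was at 3.21 CPM or less in the 3 classes where it was tested without Col2a1-high barcodes, endothelial-like, osteoblast-like and BMSC-like cells. With these barcodes kept it was higher in 4 of 5 classes, reaching 21.5 and 21.4 CPM in endothelial-like cells of Fracture, while erythroid-like cells of Fracture held 52.8 and 66.7 CPM.

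**Figure D4:**
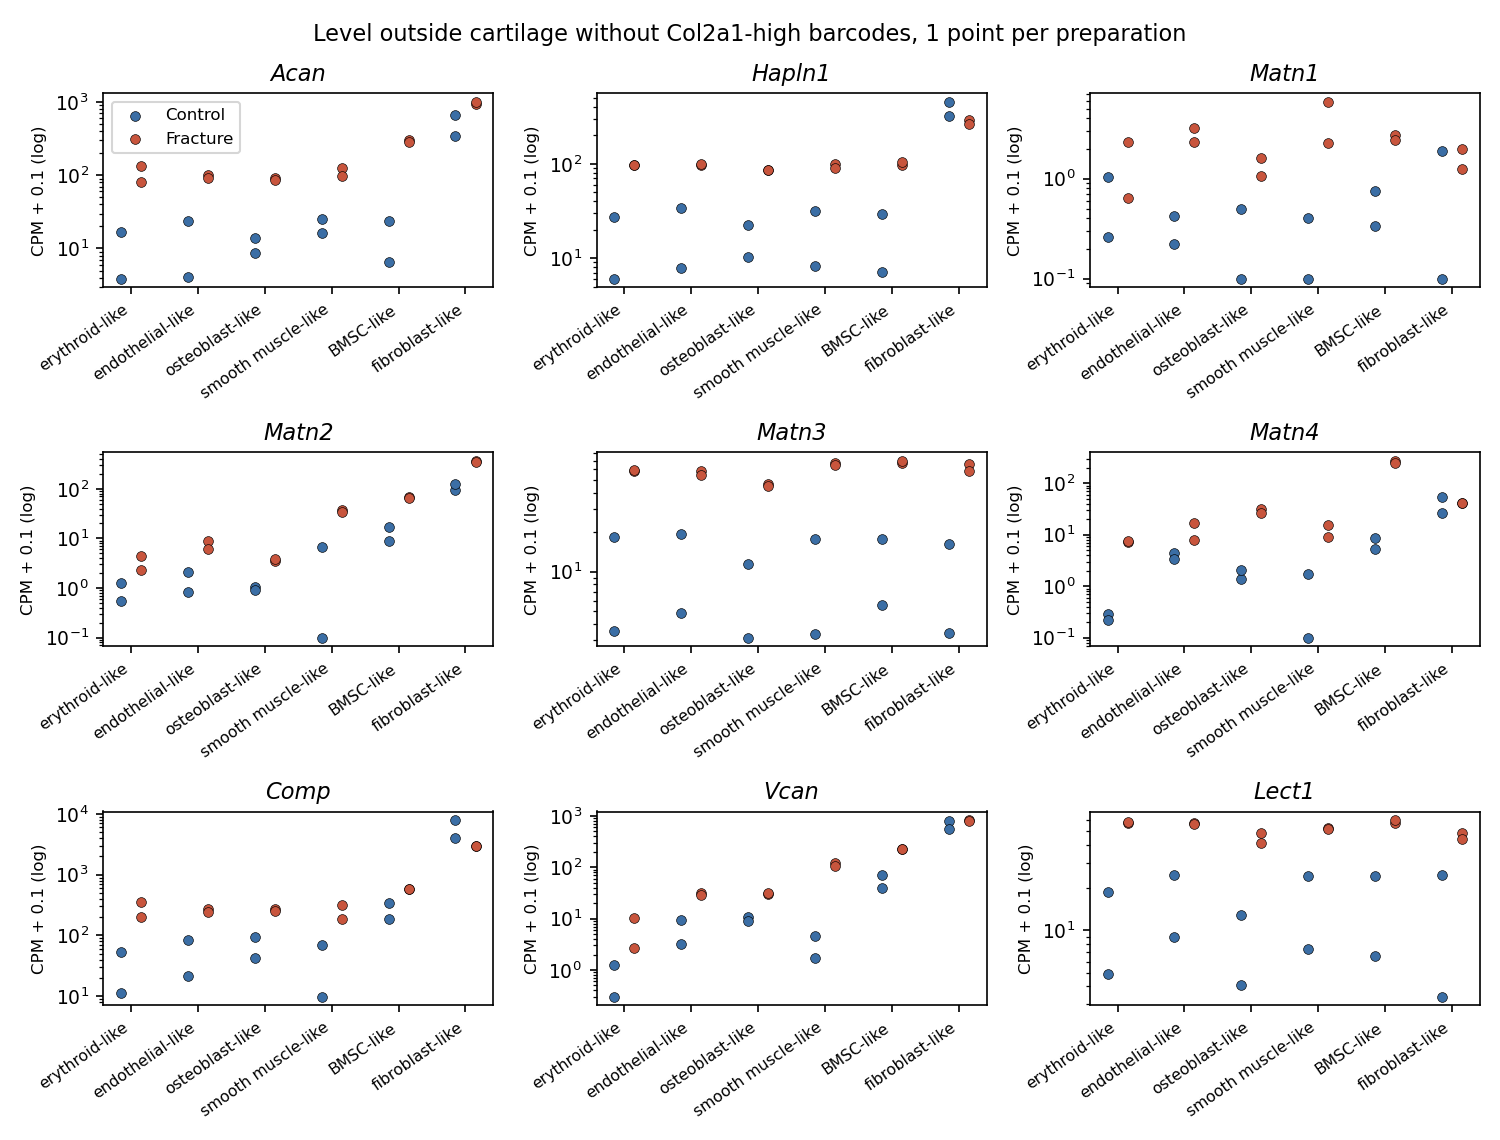
CPM + 0.1, without TMM scaling, of the 9 members in each class outside cartilage without Col2a1-high barcodes, on log axes, with a point for each preparation, coloured by group. Erythroid-like cells stand at the left of each panel. Matn4 in BMSC-like cells, Matn2 and Vcan in fibroblast-like cells and Vcan in smooth muscle-like cells stand well above the erythroid-like points of Fracture, whereas the Fracture points of Lect1 lie between 41.5 and 59.7 CPM in every class drawn.

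Genes that make, modify or bind the aggregate were taken as companion lists. In chondrocyte-like cells 15 of 59 listed genes were higher and 9 lower, of 57 tested (0 in either direction with Fracture preparation 1 or 2 left out), against 19.3% of all genes higher and 18.1% lower and a median log2 difference over all genes of −0.01. In the chondroitin sulfate synthesis list, 6 of 21 genes were higher and 5 lower, with a median of −0.05. Chsy1, a chondroitin polymerizing enzyme, went from 23.5 and 18.7 to 91.7 and 94.3 CPM (2.14 ± 0.13), whereas the sulfotransferase gene Chst11 went from 561 and 571 to 370 and 368 CPM (−0.62 ± 0.05).

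Of 8 aggrecan proteases and their inhibitor 2 were higher and 0 lower: Mmp13, the collagenase of hypertrophic cartilage, went from 260 and 305 to 1226 and 1330 CPM (2.18 ± 0.11), and Adamts4, an aggrecanase, from 1.08 and 0.390 to 3.45 and 3.90 CPM. Mmp13 was among the markers that named the hypertrophic-like subtype, whose share of the class was larger in Fracture. The part of that share in its rise was not tested. Of 4 thrombospondins beside Comp, Thbs2 rose from 8.07 and 6.95 to 74.0 and 73.8 CPM (3.29 ± 0.10; edgeR, Benjamini-Hochberg adjusted p = 0.000908) and Thbs3 fell by 0.37 ± 0.05 on the log2 scale. Of the Sox trio, transcription factors that drive cartilage matrix genes, Sox5 went from 197 and 206 to 87.1 and 92.8 CPM (−1.16 ± 0.06) and Sox9 from 1203 and 1084 to 800 and 837 CPM (−0.48 ± 0.08). The Control and Fracture values of each of these genes lay apart.

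Of 10 collagen and proteoglycan partners 2 were higher, Dcn (0.93 ± 0.08) and Lum (0.31 ± 0.08), which encode small leucine-rich proteoglycans, and 0 were lower. Of 7 hyaluronan genes tested, Has1, a hyaluronan synthase at 0.253 and 0.234 against 1.54 and 1.76 CPM, and the receptor gene Cd44, at 16.8 and 20.8 against 27.9 and 30.1 CPM, were higher. Of 4 lectican and link relatives tested, Bcan and Hapln4 were higher and Hapln3 was lower, with no value above 11.2 CPM. The median log2 differences of these lists were 0.13, 0.20 and 1.75.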

How the data were processed

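The authors deposited raw UMI counts per gene and barcode for 8 libraries (mm10), with no normalization. The submitters' processing notes name bcl2fastq 2.19.1.403, UMI-tools 1.0.0, STAR 2.7.3a and featureCounts 1.6.4. The methods of the study name STARsolo, EmptyDrops and a GENCODE annotation. Cells with 500 to 6000 genes and at most 25% mitochondrial counts were kept (45328 of 48903 barcodes). Cells were integrated and clustered with Seurat 5.3.0 without the members, their companion genes and 94 cell cycle genes. Cell cycle genes were kept when chondrocyte-like cells were subclustered. Classes with at least 3 raised markers were named. Left unnamed were subtypes with nearly all markers of a second list raised. So were subtypes with at least 3 markers of another class among their 10 leading genes. Doublets (718 called, 1.58%) were kept, and their removal was an alternative. Counts were summed per preparation and tested with edgeR 4.0.16 (TMM, filterByExpr, quasi-likelihood, Benjamini-Hochberg over all genes tested), which was tested on simulated data. The mean TMM factor fell by 0.15 from Control to Fracture in chondrocyte-like cells and fell by 0.21 over all stromal cells (log2), which raised Fracture values by as much against plain CPM. The alternatives are given in the closing section.

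The members and lists were chosen with earlier results of these data known. Named were the 9 members in every comparison, the 2 largest called changes of each companion list in each direction, and for each member the 3 genes of highest correlation. Pairs of preparations with the same number deviated together only weakly, with correlations of between 0.04 and 0.12.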

Additional observations from a re-analysis of the deposited data

Results flagged for a closer look

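A difference of the fracture effect between chondrocyte subtypes, tested as a term of its own against Lcn2-high cells with the preparation as a block, was found for the following values, all on the log2 scale and as the effect in the named subtype minus that in Lcn2-high cells. Of 36 checks of a group's 4 libraries, over all stromal and chondrocyte-like cells, 0 had a library far from the others. Libraries come in pairs from a preparation, so these checks cannot show a preparation that stands apart, and no subtype was checked. Without integration the Lcn2-high subtype had 1 and 0 Control cells. The clusters depend on integration, and the part of that step in these differences was not tested.

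In hypertrophic-like cells the difference was −0.61 for Acan, −1.25 for Hapln1, −1.20 for Matn1, −0.66 for Matn3, −0.70 for Matn4, −2.01 for Vcan and −0.72 for Lect1, while Comp differed the other way, by 0.70. For Matn2 no difference was found there. The Vcan difference rested on 18 and 19 Control UMIs in hypertrophic-like cells and on 13 and 2 in Lcn2-high cells.

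In Serpina1-positive cells the difference was 2.28 for Matn1, 0.35 for Hapln1 and 0.38 for Lect1, and −0.56 for Acan, −0.35 for Matn3 and −1.23 for Matn4. In Myoc-high cells it was 2.12 for Matn1, 1.25 for Lect1 and 0.25 for Comp, and −0.42 for Acan and −1.39 for Vcan. In prehypertrophic-like cells it was −0.91 for Matn1 and −0.34 for Lect1. In cycling cells it was 2.16 for Matn1, 0.48 for Lect1 and 0.36 for Comp, and −0.32 for Acan and −0.35 for Matn3. The Control preparations of Myoc-high cells lay far apart, from 12.4 to 34.6 CPM for Matn1 and from 1.57 to 8.70 CPM for Vcan. In the Lcn2-high reference Vcan rested on 13 and 2 Control UMIs.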

How the results depend on the processing

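The limits are those of 2 preparations per group, of cartilage RNA in cells of other classes, and of BMSC-like cells and subtypes that rest on integration. Counts are of members that passed the test at 0.05. Where a preparation was left out, the lone one was assumed to vary like those of the other group. Calls were lost without either Fracture preparation and not without a Control preparation over all stromal and chondrocyte-like cells, and the cause was not tested. The counts over single preparations left out ran from 0 to 9 for higher members over all stromal cells, 0 to 6 (main 3) in chondrocyte-like cells, 4 to 25 (main 16) higher and 1 to 8 (main 5) lower in subtypes, 9 to 44 (main 36) higher and 0 to 1 lower in other classes, 16 to 31 (main 26) for differences between subtypes, and 0 to 23 (main 15) higher and 0 to 14 (main 9) lower in the companion lists. In chondrocyte-like cells DESeq2 and no filter each gave 5 higher members. In subtypes no filter gave 31 higher, and without integration 7 were higher and 0 lower in edgeR, over the 3 subtypes that could be fitted. Subcluster resolution 0.4 gave 3 lower. Of the differences between subtypes DESeq2 called 17 and the fit without the replicate block 9. The replicate block, which pairs preparations by number, gave 9 higher members over all stromal cells, 3 in chondrocyte-like cells, 12 higher and 5 lower in subtypes, 35 in other classes and 14 higher and 9 lower companion genes. The Matn4 share difference, 22.2 percentage points, was 28.2 at 2000 UMIs and 31.1 without thinning.

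Values below are log2 differences. Of those that turned, Matn1, Hapln1 and Lect1 in hypertrophic-like cells were called with integration, and the cause was not tested. Clusters were matched to subtypes by the largest share of shared cells. Without integration, hypertrophic-like joins a hypertrophic cluster (31 and 14 Control, 2228 and 2190 Fracture cells) and an unnamed one led by Car3, Ifitm5 and Mepe (29 and 9, 171 and 186). The former held 2944 cells of the integrated hypertrophic-like subtype and 1327 of the prehypertrophic-like one. At resolution 0.4, the cluster matched to prehypertrophic-like took 1857 prehypertrophic-like and 1215 hypertrophic-like cells and by its own markers was hypertrophic. Without integration the sign turned for Hapln1 in hypertrophic-like (1.97), Matn1 in hypertrophic-like (2.697), Matn3 in hypertrophic-like (1.76), Lect1 in hypertrophic-like (0.62), Comp in Serpina1-positive (−0.27), Hapln1 in fibroblast-like (−0.51), Vcan in fibroblast-like (−0.17). With doublets removed the sign turned for Matn3 in Serpina1-positive (−0.0023), Comp in Serpina1-positive minus Lcn2-high cells (−0.0086), Matn2 in cycling minus Lcn2-high cells (−0.0055). With at least 3000 UMIs per cell the sign turned for Matn3 in Serpina1-positive (−0.0041), Comp in Serpina1-positive minus Lcn2-high cells (−0.0017). At subcluster resolution 0.4 the sign turned for Hapln1 in prehypertrophic-like (−0.33), Matn2 in prehypertrophic-like (−0.16), Hapln1 in Myoc-high minus Lcn2-high cells (0.0065), Matn3 in Myoc-high minus Lcn2-high cells (−0.080), Matn4 in prehypertrophic-like minus Lcn2-high cells (−0.16). With DESeq2 the sign turned for Matn3 in cycling (0.010). With no filter on low counts the sign turned for Matn3 in cycling (0.035), Matn2 in Serpina1-positive minus Lcn2-high cells (−0.040), Comp in Serpina1-positive minus Lcn2-high cells (−0.084), Hapln1 in cycling minus Lcn2-high cells (−0.0041), Matn2 in cycling minus Lcn2-high cells (−0.034). Without Col2a1-high barcodes (added after seeing the data) the sign turned for Hapln1 in fibroblast-like (−0.41). In cells of at least 1000 CPM Col10a1 (added after seeing the data) the sign turned for Matn2 in hypertrophic-like (0.042), Matn3 in hypertrophic-like (0.15), Vcan in hypertrophic-like (1.47). Without the replicate block the sign turned for Matn2 in Serpina1-positive minus Lcn2-high cells (−0.0061). Without thinning the sign turned for the Hapln1 share (2.50 percentage points). Leaving out 1 preparation, the sign turned for Matn1 in chondrocyte-like (−0.21 to 0.0079), Matn2 in chondrocyte-like (−0.031 to 0.084), Matn2 in hypertrophic-like (−0.42 to 0.17), Vcan in hypertrophic-like (−0.75 to 0.071), Matn3 in Serpina1-positive (−0.12 to 0.14), Hapln1 in prehypertrophic-like (−0.072 to 0.13), Matn2 in prehypertrophic-like (−0.027 to 0.080), Matn3 in cycling (−0.034 to 0.0041), Comp in fibroblast-like (−0.87 to 0.11), Vcan in fibroblast-like (−0.048 to 0.53), Matn2 in Serpina1-positive minus Lcn2-high cells (−0.23 to 0.15), Comp in Serpina1-positive minus Lcn2-high cells (−0.030 to 0.017), Vcan in Serpina1-positive minus Lcn2-high cells (−1.04 to 1.08), Hapln1 in Myoc-high minus Lcn2-high cells (−0.14 to 0.046), Matn3 in Myoc-high minus Lcn2-high cells (−0.028 to 0.18), Matn4 in Myoc-high minus Lcn2-high cells (−0.069 to 0.39), Matn3 in prehypertrophic-like minus Lcn2-high cells (−0.13 to 0.11), Comp in prehypertrophic-like minus Lcn2-high cells (−0.032 to 0.19), Matn2 in cycling minus Lcn2-high cells (−0.086 to 0.13), Vcan in cycling minus Lcn2-high cells (−1.73 to 2.47).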

Other observations

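With integration, BMSC-like cells were the class outside cartilage with the most companion genes that moved. Of 59 listed genes 38 were higher and 6 lower, of 56 tested, where 25.7% of all genes were higher and 26.3% lower. Clustered without integration, 22 were higher and 6 lower, of 55 tested, where 3016 of 14035 genes were higher and 3015 lower. Endothelial-like cells then had 34 higher and 4 lower, of 55 tested, where 2734 of 14354 genes were higher and 2516 lower. The values below are with integration. Of 10 collagen and proteoglycan partners 9 were higher in BMSC-like cells. Fmod, which encodes the small proteoglycan fibromodulin, went from 31.7 and 8.36 to 738 and 721 CPM, and Fn1, the fibronectin gene, from 341 and 210 to 4456 and 4419 CPM, so neither gene's groups overlapped. Fracture cells of this class carried the cartilage collagen RNA Col2a1, and the part of free RNA in the list was not tested.

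All 4 thrombospondins beside Comp were higher in BMSC-like cells. Thbs2 went from 41.2 and 38.7 to 665 and 587 CPM (3.97 ± 0.11, log2; edgeR, Benjamini-Hochberg adjusted p = 0.000665). Has2, a hyaluronan synthase gene, went from 1.56 and 0.513 to 23.2 and 20.7 CPM, and Mmp3, a stromelysin, from 1.505 and 0.586 to 139 and 164 CPM. In the other direction, the aggrecanase gene Adamts5 went from 227 and 188 to 103 and 101 CPM (−1.02 ± 0.11), and Prelp, which encodes a leucine-rich matrix protein, from 264 and 281 to 73.2 and 88.7 CPM (−1.75 ± 0.12).

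The genes whose pattern was most like each member's were found by Pearson's r of log2(CPM + 1) over 56 sums, of 14 classes and subtypes in 4 preparations, among 6507 genes. The sums share libraries and the subtypes are parts of the chondrocyte-like class, so r is a description with no test. Matn3 and Lect1 followed the collagen IX genes, with r of 0.993 for Matn3 with Col9a3 and 0.992 for Lect1 with Col9a1. Acan and Hapln1 had an r of 0.983 with each other, and Hapln1 was most like 3110079O15Rik at 0.988. Comp was most like Sox9 (0.977), followed by Acan (0.969).

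The remaining members were most like genes outside the aggregate. Matn1 was most like Scube1 (0.931), Foxa3 (0.921) and Nim1 (0.921). Matn4 was most like Itm2a (0.929), Peg3 and Capn6 (both 0.902). Matn2 was most like F3 (0.927), Cdon (0.894) and Aebp1 (0.888), and Vcan was most like Dpt (0.867), Dkk3 (0.857) and Mfap5 (0.853), of which Dpt and Mfap5 are among the fibroblast markers.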
